A study of Mus musculus and Homo sapiens with 27 samples.

Results

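The comparison described here sets RNA captured after proximity labelling at the endoplasmic reticulum (ER) against RNA of labelled cells kept before capture, in MC38, a mouse colon carcinoma line. It rests on 6 of the series' 27 libraries, the 3 Label_Enrich and the 3 Label_Input libraries of the more deeply counted MC38 table (titled 12G). All 11676 of 56691 features that passed a low-count filter were tested. The MC38 cells of Label_Enrich and Label_Input stably expressed an enzyme the labels call LAP, with the location ERM, taken to mean the ER membrane. They received PA (10 mM; the name is not spelled out) together with the luciferase substrate furimazine (50 µM), and the reaction ran for 15 to 60 min. Label_Enrich is their RNA after a click reaction with biotin azide and capture on streptavidin beads. Label_Input is RNA set aside between those steps. A further group of 3 libraries, NonLabel_Enrich, is captured RNA titled as not labelled, for which the labels describe no separate treatment. It shared the fit and is given where it shows how far a difference from Label_Input was also present in capture without labelling. The labels tell neither whether the line was 1 clone nor whether the replicates came from separate cultures, and the p-values therefore reflect only how far these libraries varied.

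The ER is where secreted proteins, surface receptors and most membrane proteins of the secretory pathway are made. A hydrophobic signal sequence near the N-terminus, or the first transmembrane segment, is bound by the signal recognition particle as it leaves the ribosome, and ribosome and mRNA are brought to the Sec61 channel of the ER membrane. Most proteins of the cytosol, the nucleus and most of the mitochondrion lack such a signal and are translated on free ribosomes. Tail-anchored proteins, whose only membrane segment lies at the C-terminus, can be inserted only after translation has ended.

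Each coding sequence below is given as its first 105 bases (35 codons) of the GENCODE M21 transcript, to show where the hydrophobic stretch used to sort genes lies. Capitals mark the codons of the 11-residue window with the highest mean Kyte-Doolittle hydrophobicity, where that mean reached 2. The first 4 encode 2 basement membrane chains and 2 cell surface proteins and have such a window. The last, Plec, encodes a cytoskeletal linker and has none: its window mean was 1.02, against 2.75 for Lrp1.
Lamc1: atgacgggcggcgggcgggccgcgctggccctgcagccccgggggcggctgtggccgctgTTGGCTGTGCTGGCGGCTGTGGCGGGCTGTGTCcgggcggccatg
Lamb1: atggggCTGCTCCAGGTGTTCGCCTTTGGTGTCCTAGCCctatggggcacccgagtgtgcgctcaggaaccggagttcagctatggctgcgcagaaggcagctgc
Lrp1: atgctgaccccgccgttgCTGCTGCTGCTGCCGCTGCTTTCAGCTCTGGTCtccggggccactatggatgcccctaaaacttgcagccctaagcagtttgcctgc
H2-K1: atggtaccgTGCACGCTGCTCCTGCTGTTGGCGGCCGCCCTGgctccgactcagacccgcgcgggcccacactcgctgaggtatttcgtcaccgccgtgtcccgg
Plec: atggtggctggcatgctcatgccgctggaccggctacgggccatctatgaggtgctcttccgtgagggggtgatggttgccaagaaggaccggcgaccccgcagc

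Library totals were 14337703 to 18614808 counts in Label_Enrich, 13127181 to 15752255 in NonLabel_Enrich and 14030151 to 16477229 in Label_Input. Without ENSMUSG00000119584, a feature with no name in the annotation used, and Lars2, there remained 4509948 to 6022322 counts in Label_Enrich, 3660109 to 3869477 in NonLabel_Enrich and 1686731 to 2058350 in Label_Input. Label_Input was therefore the shallowest group for all other genes. The median SD of log2 CPM among 2231 genes of at least 20 CPM was 0.049 in Label_Enrich and 0.079 in Label_Input. Among 9 epithelial markers only Cdh1 was tested, Epcam, Krt20 and Cdx2 had 0 counts, and Krt8 and Krt18 had at most 1 in any library. Their summed level was 0.877 to 1.04 CPM in Label_Enrich and 1.40 to 1.72 CPM in Label_Input. All 8 mesenchymal markers were tested, with sums of 1240 to 1270 CPM in Label_Enrich and 1030 to 1070 CPM in Label_Input; they include matrix genes. The defining epithelial markers of a colon carcinoma were thus absent or near 0. Of 7 blood markers 5 had 0 counts.

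At an adjusted p under 0.05, the edgeR quasi-likelihood test called Label_Enrich higher than Label_Input for 1654 genes (14.2%) and below it for 1700 (14.6%). At least 2-fold differences made up 74 (0.634%) and 287 (2.46%) of these. The 3 Label_Enrich values lay all above the 3 Label_Input values in 19.2% of tested genes and all below them in 20.4%, together 39.6%. Testing 27191 features, without that filter, gave 2228 higher against 1177 lower calls, and the typical gene's log2 fold change shifted by 0.105. Levels are CPM, library-size normalised counts scaled with TMM factors, so a difference is relative to the bulk of tested genes and is not an amount of captured RNA. Calls were more frequent among abundant genes. In the decile of genes with the highest mean CPM 40.6% were called higher and 27.8% lower, against 1.28% and 5.31% in the decile with the lowest.

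mRNAs of proteins with an N-terminal hydrophobic stretch were called higher more often than lower. They made up 28.9% of 1624 genes called higher and 6.41% of 1389 called lower, and 14.2% of all 10503 tested genes with a classified protein. Of the 1489 genes with such a stretch, 31.6% were called higher and 5.98% lower. Genes with a stretch and at least 1 further hydrophobic segment had 264 of 791 called higher and 43 lower, with a median log2 fold change of 0.20. Of these 791, 470 had exactly 1 further segment, the usual layout of single-pass receptors. Genes with an N-terminal stretch alone, as in secreted proteins, had 206 of 698 higher and 46 lower (median 0.15). Genes with 2 or more internal segments and no N-terminal stretch, the layout of many transporters, had 200 of 778 higher and 67 lower (median 0.11). A single internal segment away from the C-terminus gave 187 of 988 higher and 85 lower (median 0.05). At the other end, 19 of 164 genes with 1 segment at the C-terminus were higher and 35 lower (median -0.11), and 748 of 7084 genes with no segment were higher and 1113 lower (median -0.05). With stricter hydrophobicity thresholds (window means of 2.4 and 2.0) the median was 0.24 for an N-terminal stretch alone (36.8% of 527 higher) and 0.23 with further segments (33.8% of 400), so the order of these classes depends on the threshold. The medians were then 0.18 for 2 or more internal segments, 0.12 for 1 away from the C-terminus, -0.11 for 1 at the C-terminus and -0.03 for none. The classes rest on hydrophobicity alone and are not signal peptide calls. Ldha, lactate dehydrogenase of the cytosol, was the most abundant member of the N-terminal class, and its 460, 437 and 441 CPM in Label_Enrich overlapped its 475, 457 and 466 CPM in Label_Input.

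Among genes without an N-terminal stretch, the share called higher went with the number of internal segments. Of these, 43.2% of the 81 with 9 or more segments were called higher and 3.70% lower, compared with 25.7% and 3.96% of the 202 with 5 to 8. With 2 to 4 segments, 22.8% of 495 genes were higher and 11.3% lower. With 1 segment, it was 17.9% and 10.4% of 1152. Genes with an N-terminal stretch had no such order. Their shares called higher were 29.5% of 698 with 0 segments, 38.7% of 470 with 1, 20.7% of 184 with 2 to 4, 27.8% of 115 with 5 to 8 and 54.5% of 22 with 9 or more.

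Transcript length also went with the fold change. In the shortest decile of protein-coding transcripts (303 to 1281 nt) 1.61% of 1055 genes were called higher and 42.3% lower, with a median log2 fold change of -0.38. In the longest decile (6585 nt and longer) 27.7% were higher and 5.02% lower (median 0.12). The median transcript measured 4191 nt among protein-coding genes called higher, 1851 nt among those called lower and 3080 nt among all tested. NonLabel_Enrich against Label_Input had medians of -0.46 in the shortest and 0.16 in the longest decile. Label_Enrich against NonLabel_Enrich had medians of 0.09 in the shortest and -0.03 in the longest decile. These comparisons share libraries.

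**Figure D1:**
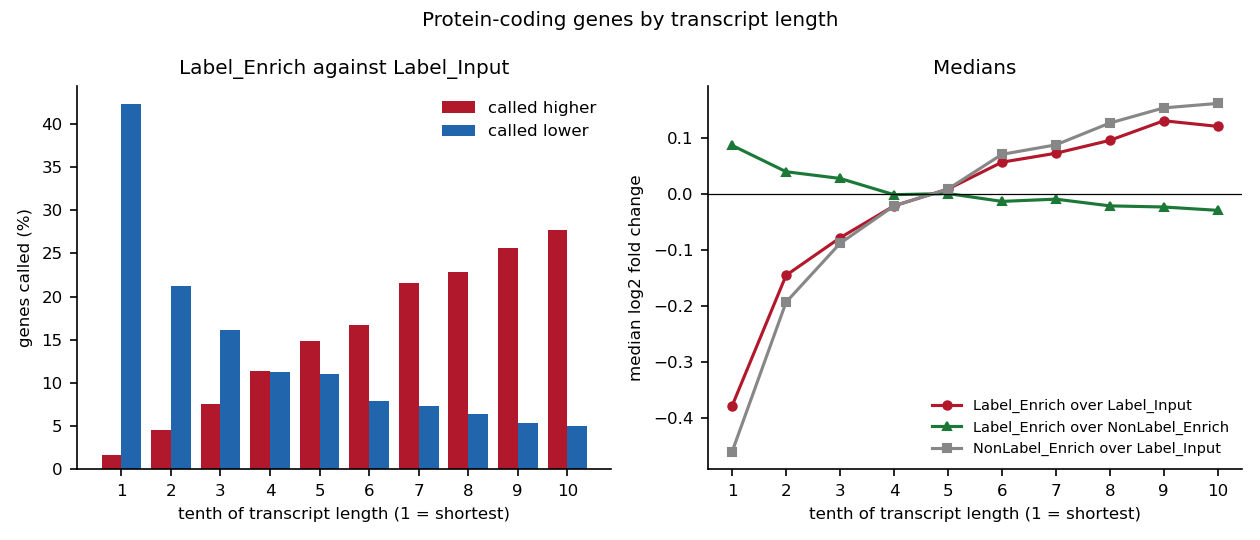
Left, the percentage of tested protein-coding genes called higher (red) or lower (blue) in Label_Enrich than in Label_Input, by decile of transcript length. Right, the median log2 fold change of each decile for the 3 pairs of groups: both comparisons with Label_Input climb with length, and Label_Enrich over NonLabel_Enrich stays between -0.03 and 0.09.

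The classes also differed within each tertile of transcript length. In the longest tertile, 46.9% of 286 genes with N-terminal and internal stretches and 48.8% of 205 with an N-terminal stretch alone were called higher, compared with 17.1% of 2174 genes with none. In the shortest tertile these shares were 18.1% of 237, 13.9% of 267 and 3.30% of 2542. The median log2 fold change for N-terminal and internal stretches was 0.01 in the shortest tertile and 0.34 in the longest, while genes with none had -0.19 and 0.06. Against NonLabel_Enrich the 2 classes with an N-terminal stretch had medians of 0.15 to 0.22 in every tertile, and genes with none had 0.03, -0.04 and -0.07 going up in length. Label_Enrich was higher than NonLabel_Enrich for 257 of 791 genes with N-terminal and internal stretches and for 455 of 7084 with none, beside 10.4% of all tested genes.

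**Figure D2:**
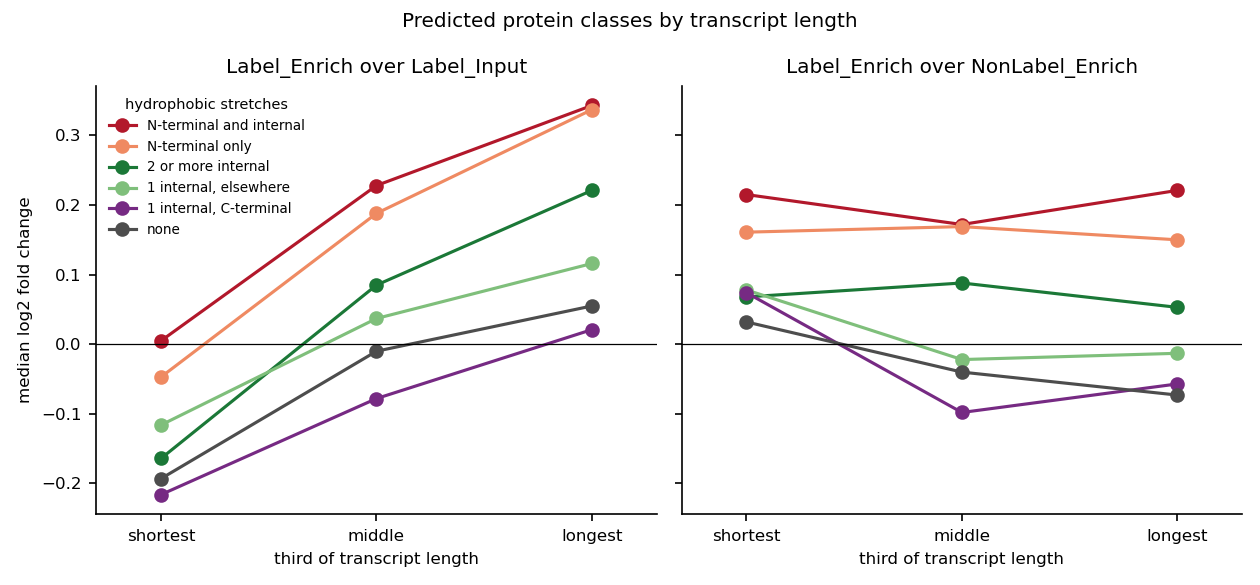
Median log2 fold change of each protein class in each tertile of transcript length, for Label_Enrich over Label_Input (left) and over NonLabel_Enrich (right). On the left all classes climb with length, and the classes with an N-terminal stretch reach 0.34 in the longest tertile; on the right these same classes stay at 0.15 to 0.22 in every tertile.

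Among secreted products, matrix glycoproteins were the group with the most members called: 23 of 30 were higher and 1 lower, with a median log2 fold change of 0.64 beside -0.02 for all genes tested. Lamc1, the laminin chain shared by most basement membrane laminins, had 192, 195 and 196 CPM in Label_Enrich, 137, 137 and 135 CPM in NonLabel_Enrich and 89.9, 86.4 and 100 CPM in Label_Input. The 3 groups did not overlap, and Label_Enrich was higher than Label_Input by 1.08 ± 0.05 (log2, SE, edgeR adjusted p = 1.13e-28). Fbn1, the microfibril protein fibrillin-1, had 200, 202 and 195 CPM in Label_Enrich and 98.1, 98.5 and 102 CPM in Label_Input. It rose by 1.00 ± 0.05, and Lamb1, whose signal stretch is printed above, by 1.19 ± 0.06. The small proteoglycans of the matrix were not among the genes called higher. Bgn (biglycan) was lower, at 247, 261 and 256 CPM in Label_Enrich against 312, 310 and 306 CPM in Label_Input. Its log2 fold change was -0.28 ± 0.04 (edgeR adjusted p = 1.99e-07). In NonLabel_Enrich it had 235, 249 and 244 CPM, and Label_Enrich had 0.07 ± 0.04 against that group (edgeR adjusted p = 0.249). Dcn (decorin) had 37.7, 41.8 and 40 CPM in Label_Enrich, 24.3, 24.9 and 26.7 CPM in NonLabel_Enrich and 43.2, 38.2 and 39.0 CPM in Label_Input. Its Label_Enrich and Label_Input values overlapped, while Label_Enrich was higher than NonLabel_Enrich by 0.65 ± 0.06 (edgeR adjusted p = 4.51e-13).

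Proteases that cut the matrix and their inhibitors had 13 of 28 members higher and 0 lower (median 0.41). Mmp2, a secreted gelatinase, was at 187, 177 and 180 CPM in Label_Enrich and 115, 120 and 120 CPM in Label_Input, higher by 0.62 ± 0.05. The membrane-bound Mmp14, which activates Mmp2, rose by 0.66 ± 0.06 and the surface protease Adam9 by 0.59 ± 0.07. The inhibitor Timp3 had a log2 fold change of 0.05 ± 0.06 (edgeR adjusted p = 0.582). Growth factors and cytokines, mostly made as small secreted proteins, had 7 of 43 called in each direction (16.3%), near the shares of all genes tested (14.2% and 14.6%), and a median of -0.00, which took either sign over the alternative settings. Bmp1, the protease that trims procollagen, rose by 0.80 ± 0.10 and the macrophage growth factor Csf1 by 0.38 ± 0.05. Against NonLabel_Enrich Bmp1 had 0.27 ± 0.07 and Csf1 0.08 ± 0.05 (edgeR adjusted p = 0.00583 and 0.278).

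Both chemokine mRNAs named here were lower than in the input. Ccl2, a monocyte attractant, had 29.8, 28.4 and 28.6 CPM in Label_Enrich, 21, 20.7 and 22.3 CPM in NonLabel_Enrich and 38.1, 36.5 and 38.4 CPM in Label_Input. Label_Enrich stood between the other groups without overlap, lower than Label_Input (-0.38 ± 0.07, edgeR adjusted p = 4.71e-06) and higher than NonLabel_Enrich (0.44 ± 0.06, adjusted p = 1.06e-07). Ccl7 did likewise, at -0.61 ± 0.07 against Label_Input and 0.26 ± 0.07 against NonLabel_Enrich (edgeR adjusted p = 0.00351). Both transcripts are short, 813 and 801 nt, and both encode an N-terminal hydrophobic stretch. Mif, a cytokine exported without a signal peptide, was lower than Label_Input by -0.76 ± 0.06 and had 0.03 ± 0.06 against NonLabel_Enrich (edgeR adjusted p = 0.773), with a 544 nt transcript.

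Serpins and insulin-like growth factor binding proteins also had a median near 0 (-0.02, either sign over the alternatives), with 3 of 19 higher and 1 lower. Serpinh1 (HSP47), the collagen chaperone of the ER, had 335, 318 and 320 CPM in Label_Enrich and 203, 206 and 216 CPM in Label_Input. That is a rise of 0.64 ± 0.04 (edgeR adjusted p = 6.61e-20). Serpinb6a, a serpin of the cytosol, had 82.9, 82.8 and 83.3 CPM and 82.5, 80.9 and 88.0 CPM in the same groups, which overlapped. Its NonLabel_Enrich values were 56.3, 58.8 and 63.3 CPM, and Label_Enrich was higher than these by 0.48 ± 0.05 (edgeR adjusted p = 1.18e-11). For Serpinh1 the log2 fold change against NonLabel_Enrich was 0.42 ± 0.04 (edgeR adjusted p = 2.70e-12).

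Among adhesion receptors, calls were nearly all in the higher direction. Of 12 tested integrin chains 8 were higher and 0 lower (median 0.53). Itgb1, the beta chain that most matrix-binding integrins share, had 248, 254 and 260 CPM in Label_Enrich, 165, 161 and 166 CPM in NonLabel_Enrich and 140, 145 and 143 CPM in Label_Input. The 3 groups did not overlap, and NonLabel_Enrich lay nearer to Label_Input than to Label_Enrich. Log2 fold changes were 0.83 ± 0.05 against Label_Input and 0.63 ± 0.04 against NonLabel_Enrich (edgeR adjusted p = 6.26e-25 and 1.49e-19). Itgb7 was at 161, 155 and 148 CPM in Label_Enrich and 81.6, 82.1 and 88.5 CPM in Label_Input, a rise of 0.88 ± 0.05. Itga3, a laminin-binding chain, rose by 0.81 ± 0.06. Cadherins, many of them near the low-count limit, had 7 of 19 higher and 0 lower (median 0.34), against 4 higher without Label_Enrich replicate 3 or without Label_Input replicate 2, and 3 with DESeq2. Clstn1, a cadherin-related membrane protein, rose by 0.86 ± 0.06. Fat1, an atypical cadherin with a transcript of 14814 nt, rose by 0.67 ± 0.07 but had 0.09 ± 0.06 against NonLabel_Enrich (edgeR adjusted p = 0.281). Of 17 tetraspanins, small proteins that cross the membrane repeatedly, 9 were higher and 1 lower (median 0.28). Cd63 had 101, 97.1 and 99.7 CPM in Label_Enrich and 79.7, 75.2 and 76.9 CPM in Label_Input (0.36 ± 0.05). Cd81 overlapped between those groups, with a log2 fold change of 0.06 ± 0.07 (edgeR adjusted p = 0.531), but was higher than NonLabel_Enrich by 0.33 ± 0.06 (adjusted p = 2.99e-05).

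Among receptors that signal, tyrosine kinases had 17 of 23 higher and 0 lower (median 0.56), receptor phosphatases 5 of 7 and 0 (median 0.42), and the list of plexins, semaphorins and Notch 14 of 21 and 0 (median 0.64). Epha2, an ephrin receptor, had 134, 128 and 135 CPM in Label_Enrich and 76.6, 75.2 and 76.4 CPM in Label_Input, higher by 0.80 ± 0.05. Its values in NonLabel_Enrich were 113, 114 and 107 CPM, so the gap to that group was smaller (0.24 ± 0.05, edgeR adjusted p = 2.63e-05). Ryk, a kinase-like receptor for Wnt, was the most abundant kinase-list member not called, at -0.14 ± 0.09 (edgeR adjusted p = 0.269). Ptprs, a receptor phosphatase that binds heparan sulfate, had 152, 155 and 149 CPM in Label_Enrich and 80.1, 77.9 and 87.5 CPM in Label_Input (0.89 ± 0.05). Plxnb2, a semaphorin receptor, had 307, 309 and 302 CPM in Label_Enrich, 227, 221 and 205 CPM in NonLabel_Enrich and 147, 148 and 150 CPM in Label_Input. The semaphorin co-receptor Nrp2 rose by 0.66 ± 0.05 and Plxna1 by 0.72 ± 0.06. Among Frizzled and adhesion-type receptors 6 of 13 were higher and 1 lower (median 0.37), with Adgra2 at 0.91 ± 0.07 and Smo, the Hedgehog transducer, at 0.59 ± 0.07. NonLabel_Enrich against Label_Input had a median of 0.28 for these 13 genes and 0.33 for the tyrosine kinases. Against NonLabel_Enrich 4 of the 13 were higher and 0 lower (median 0.04), and 15 of the 23 kinases and 0 (median 0.29). Over all genes tested these shares were 10.4% and 9.63%.

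Endocytic receptors of the list that holds Lrp1 had 11 of 13 members higher and 0 lower (median 0.53). Lrp1, a scavenger and signalling receptor with a 14888 nt transcript, had 506, 506 and 493 CPM in Label_Enrich, 450, 451 and 419 CPM in NonLabel_Enrich and 250, 267 and 259 CPM in Label_Input. Both captured groups were far above Label_Input. Its log2 fold changes were 0.96 ± 0.04 against Label_Input and 0.19 ± 0.04 against NonLabel_Enrich (edgeR adjusted p = 2.36e-29 and 0.000299).

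**Figure D3:**
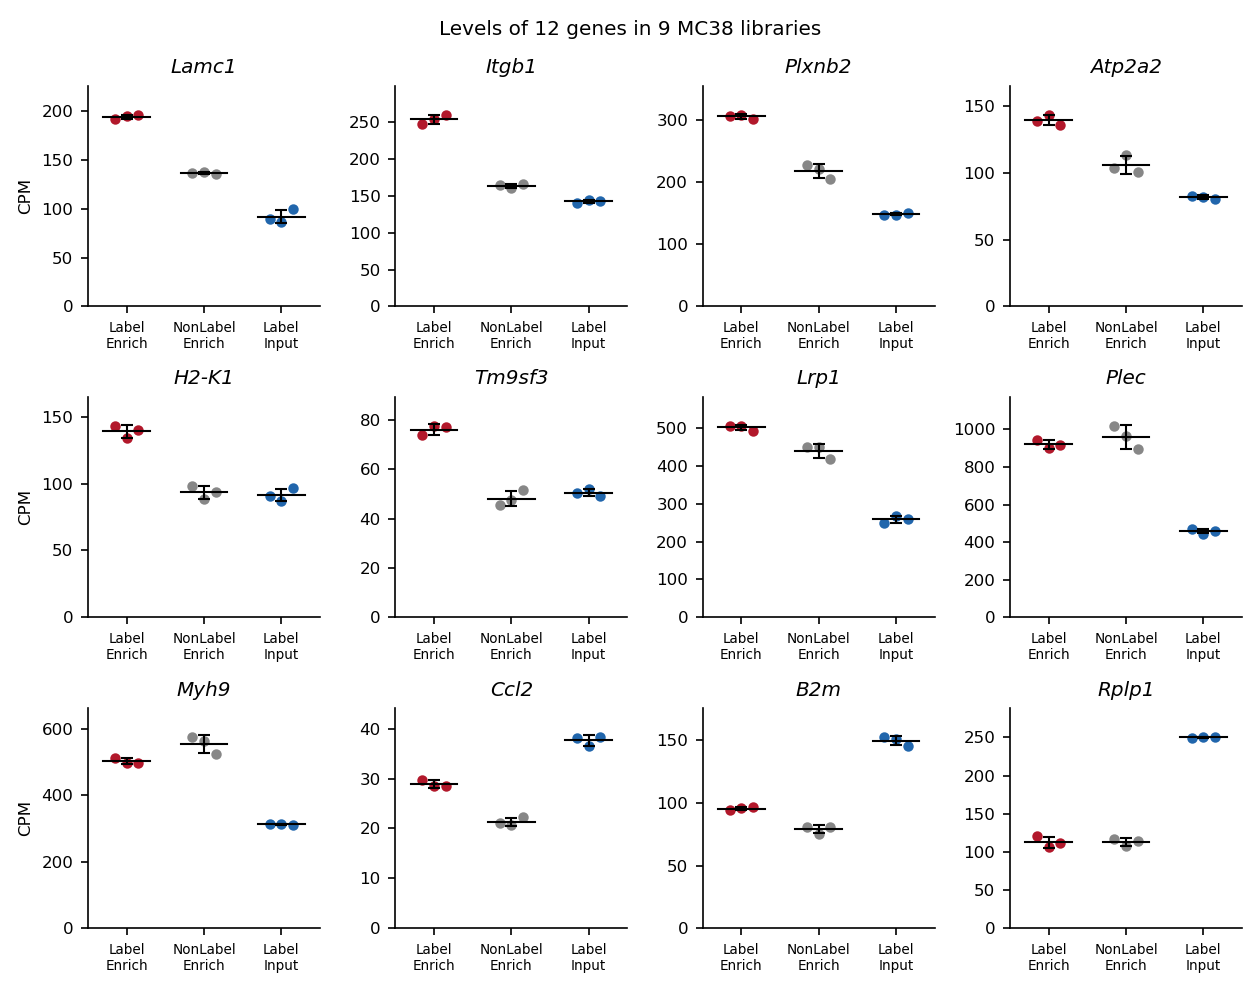
CPM of 12 genes in each of the 9 libraries (points), with group mean (line) and SD (bar, n = 3), on linear axes from 0. In Lamc1, Itgb1, Plxnb2 and Atp2a2 Label_Enrich stands above both other groups; in Plec and Myh9 both captured groups stand above Label_Input; in B2m, Ccl2 and Rplp1 Label_Input is highest.

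The MHC class I list holds chains that present peptides at the cell surface and genes that supply or load those peptides. Of its 12 tested genes, 5 were higher and 1 lower. The abundant heavy chains H2-K1 and H2-D1 were higher. H2-K1 had 143, 134 and 140 CPM in Label_Enrich, 98.1, 88.8 and 93.7 CPM in NonLabel_Enrich and 90.4, 87.4 and 96.5 CPM in Label_Input. Its NonLabel_Enrich and Label_Input values overlapped, and Label_Enrich was higher than Label_Input by 0.60 ± 0.05 (edgeR adjusted p = 4.74e-16). H2-D1 rose by 0.53 ± 0.05. The peptide transporter Tap1, at under 10 CPM in all 9 libraries, rose by 0.96 ± 0.17. B2m, the soluble light chain that every class I molecule carries, had 94.0, 96.2 and 96.4 CPM in Label_Enrich, 80.8, 75.6 and 80.9 CPM in NonLabel_Enrich and 153, 151 and 145 CPM in Label_Input. It was thus lower than Label_Input (-0.65 ± 0.05, edgeR adjusted p = 1.45e-18) and higher than NonLabel_Enrich (0.27 ± 0.05, adjusted p = 6.87e-06). The B2m transcript has 860 nt and that of H2-K1 1619 nt. The other 4 tested heavy chain genes, H2-T22, H2-M3, H2-Q4 and H2-T23, were scarcer and were not called, with log2 fold changes of -0.28, 0.40, 0.26 and 0.11; they are named after their values were seen. Class I heavy chain genes resemble each other, so how reads were divided among them is uncertain.

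Transporters and pumps of membranes that form from the ER were called higher more often than lower. P-type pumps had 12 of 19 higher and 0 lower (median 0.43), ABC transporters 12 of 20 and 0 (median 0.48), and SLC carriers outside the SLC25 family 39 of 134 higher and 11 lower (median 0.19, or 0.11 with the median of each gene's length decile subtracted). The 11 lower calls were fewer, 4 to 7, without any 1 of Label_Enrich replicates 1 and 2 or Label_Input replicates 1, 2 and 3. Atp2a2 (SERCA2), the calcium pump of the ER membrane, had 139, 144 and 136 CPM in Label_Enrich, 104, 114 and 100 CPM in NonLabel_Enrich and 83.1, 82.1 and 80.7 CPM in Label_Input. The groups did not overlap, and Label_Enrich was higher than Label_Input by 0.77 ± 0.05 (edgeR adjusted p = 1.57e-20). Slc4a2, an anion exchanger, rose by 0.93 ± 0.07 and the lactate exporter Slc16a3 by 0.85 ± 0.07. The export pump Abcc1 rose by 0.68 ± 0.07. Slc38a2, a neutral amino acid transporter, was lower: 156, 155 and 160 CPM in Label_Enrich against 183, 193 and 185 CPM in Label_Input (-0.25 ± 0.05, edgeR adjusted p = 6.14e-06).

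Of 36 tested SLC25 carriers, which are inserted into mitochondria after translation in the cytosol, 1 was higher and 6 were lower. Their median of -0.08 was above 0 without the low-count filter. Slc25a5, the ADP/ATP carrier of the mitochondrial inner membrane, had 80.6, 75.1 and 80.6 CPM in Label_Enrich and 108, 101 and 103 CPM in Label_Input (-0.40 ± 0.05). Against NonLabel_Enrich it had 0.07 ± 0.05 (edgeR adjusted p = 0.345). The difference between the SLC25 list and the other SLC carriers was not tested.

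The proton pump of lysosomes and the Golgi, the V-ATPase, offers a comparison within 1 complex. In its membrane sector 4 of 8 genes were higher and 2 lower (median 0.09, or 0.28 after that subtraction). In its cytosolic sector 0 of 9 were higher and 3 lower (median -0.15, and -0.02 after subtraction), with 1 lower call left without Label_Input replicate 1. Atp6ap2, an accessory membrane subunit, had 48.5, 46.0 and 47.0 CPM in Label_Enrich and 34.4, 32.2 and 33.5 CPM in Label_Input (0.50 ± 0.07, edgeR adjusted p = 5.27e-09). Atp6v0c, the small proteolipid of the membrane ring, was lower by -0.41 ± 0.07 and had 0.00 ± 0.06 against NonLabel_Enrich (adjusted p = 0.984), with a transcript of 1183 nt. Atp6v1a, the catalytic subunit on the cytosolic side, had 0.10 ± 0.07 (adjusted p = 0.309).

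Among enzymes and residents of the ER and Golgi, 35 of 90 glycan-building and glycan-trimming genes were higher and 0 lower (median 0.30). NonLabel_Enrich against Label_Input had a median of 0.20 for this list. Against NonLabel_Enrich 20 of the 90 were higher and 2 lower (median 0.13), beside 10.4% and 9.63% of all genes tested. Man2a1, a Golgi mannosidase, had 32.1, 34.2 and 34.3 CPM in Label_Enrich and 19.1, 23.5 and 20.2 CPM in Label_Input (0.69 ± 0.08). St3gal2, a sialyltransferase, rose by 0.57 ± 0.08. Ogt, the member of this list that works in the cytosol and nucleus, had 35.9, 38.6 and 36.8 CPM in Label_Enrich and 38.1, 37.0 and 39.8 CPM in Label_Input, which overlapped. TM9SF genes, which encode membrane proteins with many segments, had 3 of 4 higher and 0 lower. Tm9sf3 was at 73.7, 77.6 and 76.9 CPM in Label_Enrich, 45.4, 47.6 and 51.5 CPM in NonLabel_Enrich and 50.3, 52.2 and 49.3 CPM in Label_Input. Its NonLabel_Enrich and Label_Input values overlapped, and the log2 fold changes were 0.59 ± 0.06 and 0.66 ± 0.05 against Label_Input and NonLabel_Enrich. Lipid enzymes of the ER membrane had 14 of 47 higher and 3 lower, with 1 lower call without Label_Enrich replicate 2 (median 0.14). Acsl3, which activates fatty acids at the ER and lipid droplets, rose by 0.72 ± 0.11. Gpat4, which starts glycerolipid synthesis, rose by 0.59 ± 0.08, and the desaturase Scd2 by 0.29 ± 0.04.

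The nuclear envelope is continuous with the ER. Of 19 genes for its membrane proteins 10 were higher and 2 lower (median 0.28, or 0.18 after subtraction of the length decile's median). Of 26 soluble nucleoporins, 7 were higher and 3 lower (median 0.04, or 0.00 after subtraction), with 4 higher without Label_Input replicate 1. Against NonLabel_Enrich the membrane list had 6 higher and 1 lower (median 0.06), and the soluble nucleoporins 3 and 1 (median 0.07). Over all genes tested 10.4% were higher and 9.63% lower than NonLabel_Enrich. Sun1 and Sun2 span the inner nuclear membrane. Sun2 had 66.1, 69.1 and 64.5 CPM in Label_Enrich, 45.9, 49.2 and 43.1 CPM in NonLabel_Enrich and 37.5, 37.6 and 42.2 CPM in Label_Input, a rise of 0.76 ± 0.06, and Sun1 rose by 0.84 ± 0.07. Syne3 (nesprin-3), of the outer nuclear membrane, rose by 0.81 ± 0.08 and had -0.08 against NonLabel_Enrich (edgeR adjusted p = 0.382). Emd (emerin), held by a C-terminal segment, was lower: 11.1, 9.18 and 11.2 CPM in Label_Enrich against 16.1, 14.2 and 15.2 CPM in Label_Input (-0.53 ± 0.10, edgeR adjusted p = 3.49e-05).

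Tail-anchored proteins as a list had 0 of 53 higher and 13 lower (median -0.11). The lower calls numbered 8 with DESeq2 or without the low-count filter. NonLabel_Enrich against Label_Input had a similar median for this list, -0.09. Against NonLabel_Enrich 1 of the 53 was higher and 5 were lower (median -0.03), beside 10.4% and 9.63% of all genes tested. Sec61g, the smallest chain of the Sec61 channel, had 5.02, 5.16 and 5.46 CPM in Label_Enrich, 5.77, 4.5 and 4.93 CPM in NonLabel_Enrich and 11.1, 10.0 and 11.1 CPM in Label_Input. The captured groups overlapped and both lay below Label_Input (-1.05 ± 0.13, edgeR adjusted p = 1.89e-09). Vapa, a contact-site protein of the ER, was lower by -0.45 ± 0.07. Mff, the receptor for mitochondrial fission, was lower by -0.60 ± 0.10. Cyb5b, a cytochrome b5 of the mitochondrial surface, had 102, 107 and 107 CPM in Label_Enrich, 123, 123 and 121 CPM in NonLabel_Enrich and 103, 99.5 and 113 CPM in Label_Input. It did not pass the test against Label_Input (edgeR adjusted p = 0.987) and was lower than NonLabel_Enrich by -0.22 ± 0.05 (adjusted p = 0.000227).

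**Figure D4:**
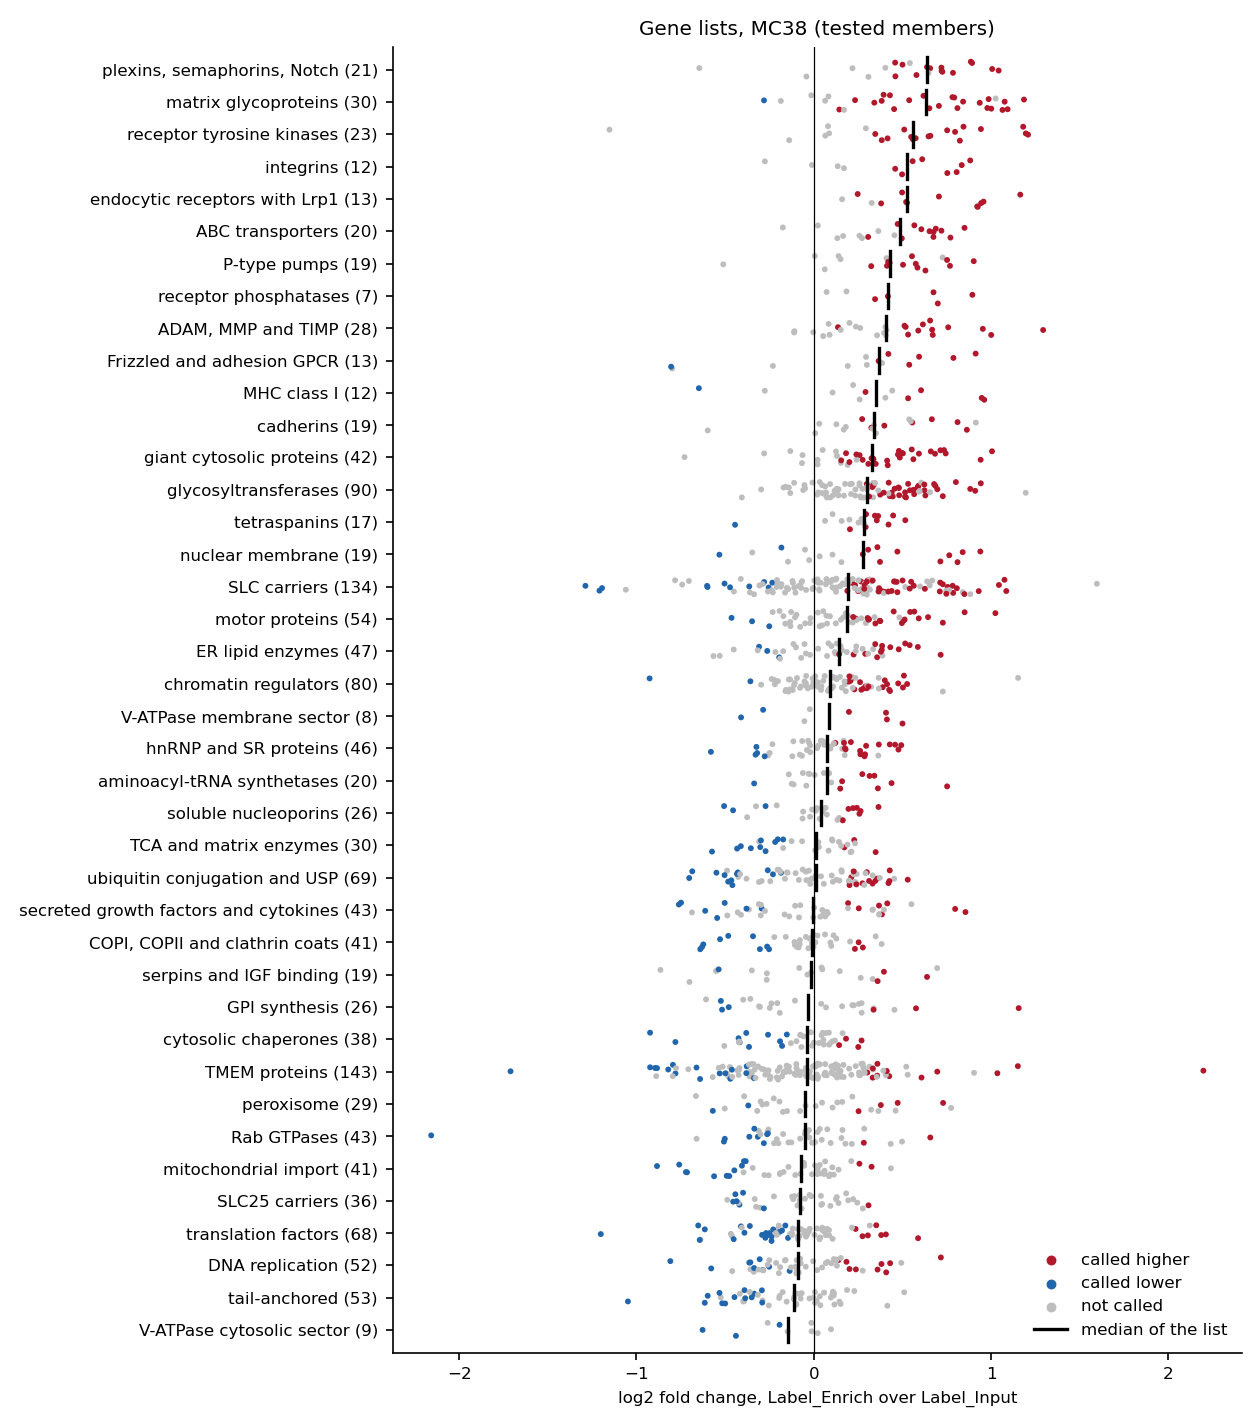
Log2 fold change of Label_Enrich over Label_Input for every tested member of 40 gene lists, ordered by list median (black bar). Red members were called higher, blue lower and grey neither, and the number of tested members follows each name: plexins, matrix glycoproteins and receptor kinases stand at the top, and the tail-anchored list and the V-ATPase cytosolic sector at the bottom.

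Of 42 genes for giant proteins of the cytosol and cytoskeleton 29 were higher and 0 lower than in Label_Input (median 0.33, or 0.21 after subtraction of the length decile's median). Against NonLabel_Enrich 7 were higher and 5 lower (median -0.01), beside 10.4% and 9.63% of all genes tested. Plec (plectin), which links intermediate filaments and has a 15439 nt transcript, had 944, 900 and 917 CPM in Label_Enrich, 1020, 966 and 895 CPM in NonLabel_Enrich and 469, 445 and 461 CPM in Label_Input. The captured groups overlapped, and both lay above Label_Input. Its log2 fold changes were 1.00 ± 0.04 against Label_Input and -0.06 ± 0.04 against NonLabel_Enrich (edgeR adjusted p = 4.35e-31 and 0.319). Myh9, the heavy chain of nonmuscle myosin IIA, had 512, 497 and 496 CPM in Label_Enrich, 575, 563 and 524 CPM in NonLabel_Enrich and 314, 312 and 312 CPM in Label_Input. It was higher than Label_Input by 0.68 ± 0.04 and lower than NonLabel_Enrich by -0.14 ± 0.04 (edgeR adjusted p = 0.00667). Motor proteins had 19 of 54 higher and 3 lower (median 0.19, or 0.11 after subtraction), with 0 lower without Label_Enrich replicate 3 or Label_Input replicate 3 and 1 lower without Label_Input replicate 2. Against NonLabel_Enrich 9 of the 54 were higher and 6 lower (median 0.04). Kif1c, a kinesin, rose by 0.64 ± 0.06 against Label_Input and was lower than NonLabel_Enrich by -0.14 ± 0.05 (edgeR adjusted p = 0.0408). Myo18a had 33.8, 33.4 and 31.0 CPM in Label_Enrich, 37.9, 37.9 and 36.2 CPM in NonLabel_Enrich and 16.1, 20.5 and 18.3 CPM in Label_Input. Myo18a, a myosin of the cytoskeleton, was thus lower than NonLabel_Enrich without overlap (-0.19 ± 0.06, edgeR adjusted p = 0.020).

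Chromatin regulators, nuclear proteins with long mRNAs, had 19 of 80 higher and 2 lower than in Label_Input (median 0.09, or -0.01 after subtraction of the length decile's median), but 2 higher and 23 lower than in NonLabel_Enrich (median -0.13). Chd4, a nucleosome remodeller, had 106, 106 and 107 CPM in Label_Enrich, 117, 112 and 118 CPM in NonLabel_Enrich and 71.3, 76.4 and 73.6 CPM in Label_Input. It lay between the other groups, lower than NonLabel_Enrich by -0.12 ± 0.05 (edgeR adjusted p = 0.046). Dnmt1, the maintenance DNA methyltransferase, rose by 0.39 ± 0.05 against Label_Input. Splicing factors of the hnRNP and SR families had 15 of 46 higher and 5 lower (median 0.08), with 3 lower without Label_Enrich replicate 3. Hnrnpm had 99.9, 106 and 103 CPM in Label_Enrich and 70.6, 71.9 and 77.1 CPM in Label_Input (0.49 ± 0.05), while Srsf2, with a transcript of 1899 nt, was lower by -0.58 ± 0.07.

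Lists of cytosolic and mitochondrial machinery held mostly lower calls. Translation factors, listed with related genes such as the ER membrane kinase Eif2ak3, had 7 of 68 higher and 20 lower (median -0.09). Cytosolic chaperones had 4 of 38 higher and 10 lower (median -0.04), and mitochondrial import factors 2 of 41 and 11 (median -0.08). After subtraction of the length decile's median these were -0.04, -0.03 and -0.02. All 3 medians were above 0 without the low-count filter, where 10, 5 and 7 members were lower. The 4 higher chaperone calls were 2 without Label_Enrich replicate 1 or Label_Input replicate 3. Eif1, a start codon selection factor with a transcript of 1322 nt, had 54.8, 53.2 and 58.2 CPM in Label_Enrich and 89.8, 85.9 and 85.1 CPM in Label_Input (-0.65 ± 0.05). Eif3b, a scaffold subunit of initiation factor 3, rose by 0.35 ± 0.05. Tomm7, a small subunit of the mitochondrial import pore, was lower by -0.71 ± 0.10, and the chaperonin partner Hspe1 by -0.56 ± 0.06. The heat-inducible chaperone genes Dnajb1 and Hspa1b were lower than both other groups. Dnajb1 had 38.9, 40.1 and 38.2 CPM in Label_Enrich, 64.9, 67.4 and 68.8 CPM in NonLabel_Enrich and 74.9, 71.8 and 75.4 CPM in Label_Input. Its log2 fold changes were -0.92 ± 0.06 and -0.78 ± 0.05 against Label_Input and NonLabel_Enrich. Hspa1b, which has a near-identical copy, had -0.78 ± 0.06 and -0.79 ± 0.06. The constitutive Hsp90ab1 was higher than Label_Input by 0.25 ± 0.04 and had -0.05 ± 0.04 against NonLabel_Enrich (edgeR adjusted p = 0.353).

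Aminoacyl-tRNA synthetases had 8 of 20 higher and 1 lower (median 0.07). Vars, the valine enzyme, had 221, 219 and 219 CPM in Label_Enrich, 179, 177 and 173 CPM in NonLabel_Enrich and 123, 129 and 139 CPM in Label_Input. It was higher than Label_Input by 0.75 ± 0.05 and than NonLabel_Enrich by 0.32 ± 0.04 (edgeR adjusted p = 7.58e-22 and 4.62e-08). Its product works in the cytosol. Aars, the alanine enzyme, rose by 0.44 ± 0.04 against Label_Input and had -0.03 ± 0.04 against NonLabel_Enrich (adjusted p = 0.690).

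Small RNAs were mostly called lower, while most long noncoding genes were not called. Of 61 tested small RNAs 0 were higher and 56 lower. Their median log2 fold change was -2.89, beside -2.47 for NonLabel_Enrich against Label_Input. Scarna2, a guide RNA of Cajal bodies, had 36.0, 39.0 and 33.3 CPM in Label_Enrich and 112, 117 and 115 CPM in Label_Input. Rny1, a Y RNA that binds Ro60, had 38.2, 33.3 and 44.5 CPM in Label_Enrich, 64.2, 61.4 and 68.8 CPM in NonLabel_Enrich and 539, 605 and 579 CPM in Label_Input. Long noncoding genes had 7 of 462 higher and 105 lower (median -0.38), and 10 higher and 56 lower than in NonLabel_Enrich. Malat1, a nuclear RNA of 6983 nt, was among the 7 higher. It had 798, 845 and 873 CPM in Label_Enrich, 695, 681 and 716 CPM in NonLabel_Enrich and 545, 555 and 545 CPM in Label_Input. Its log2 fold changes were 0.61 ± 0.04 against Label_Input and 0.27 ± 0.04 against NonLabel_Enrich. The shortest 2% of protein-coding transcripts had 2 of 210 higher and 137 lower (median -0.63), and against NonLabel_Enrich their median was 0.16.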

How the data were processed

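RNA sequencing counts were analysed for 9 MC38 libraries, 3 each of Label_Enrich, NonLabel_Enrich and Label_Input. The authors deposited raw counts per gene. Per the submitters' processing notes, the mouse build was GRCm39 and the tools were HTSeq 0.7.2, HISAT2 2.1.0, DESeq2 1.16.1 and cutadapt 1.18. Library strand, treatment of multiply matching reads and annotation release: not given in the sources used here. Reads of near-identical copies, overlapping genes and small RNAs inside host genes are therefore uncertain, which touches Rplp1, Eif1, Hspa1b, Hsp90ab1, Ldha, Slc25a5 and class I genes.

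From the deposited counts, genes were filtered by group (filterByExpr) and all 9 libraries fitted together in edgeR 4.0.16 (R 4.3.3) with TMM factors and the quasi-likelihood test. P-values were adjusted by Benjamini-Hochberg over all 11676 genes tested, with a threshold of 0.05. The SE was taken as |log2 fold change| over the square root of F. Symbols, transcript lengths and coding sequences came from GENCODE M21 (GRCm38), matched by gene identifier, which named 52073 of 56691 features; no coordinates were used. Its coding sequences were translated to give hydrophobicity classes: an N-terminal stretch is an 11-residue window within the first 35 residues with a Kyte-Doolittle mean of at least 2, an internal segment a 19-residue window from residue 41 on with a mean of at least 1.6, and it is C-terminal when it ends within 30 residues of the end. The fit was checked on simulated data.

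The comparison, gene lists and classes were chosen with earlier results of these data known. Named genes were, in each list, up to 3 called members per direction with the smallest p and the most abundant member not called; in each protein class, the most abundant member and that with the smallest p; and the 12 protein-coding and 6 other genes with the largest changes each way, at a mean of 20 CPM or more. Alternatives were RLE factors, DESeq2 1.42.0, other filters, the replicate block, the 3G table and each library left out. Some genes that this rule names are not reported here.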

Additional observations from a re-analysis of the deposited data

How the results depend on the processing

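None of the named genes that were called reversed its direction under the alternatives tried, while some list medians near 0 changed sign. A separate fit of only the 4767 genes averaging 10 CPM or more called 1081 higher in Label_Enrich than in Label_Input, and list counts moved there in both directions, with fewer members tested. Label_Enrich was lower than NonLabel_Enrich for 657 genes with DESeq2; the cause was not tested. Leaving out 1 library gave 1373 to 1482 higher and 1387 to 1547 lower against Label_Input, and 951 to 1033 higher and 859 to 996 lower against NonLabel_Enrich. DESeq2 called 1360 higher and 1293 lower against Label_Input. With the replicate block, 1652 were higher and 1694 lower against Label_Input, and 1244 and 1131 against NonLabel_Enrich. Same-numbered libraries of different groups had correlations of -0.012 to 0.02 over 9 pairs, so the numbers were not taken to pair samples. Of 216 named genes called, 41 lost the call under at least 1 alternative. Of 43 list medians, 14 changed sign under at least 1 refit, all of them within 0.10 of 0 in the fit reported. Depth outside the leading features was lowest in Label_Input, which limits calls among scarce genes.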

Other observations

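Further lists had medians near 0 against Label_Input, and each of these medians took either sign over the alternatives. Their counts stand beside 14.2% higher and 14.6% lower over all genes tested. Rab GTPases, which direct vesicle traffic, had 2 of 43 higher and 9 lower, with 0 higher without Label_Enrich replicate 2 or Label_Input replicate 3, and 1 without replicate 1 of either group. Coat proteins of COPI, COPII and clathrin vesicles had 3 of 41 higher and 9 lower, with 5 lower without Label_Input replicate 1 or 3 and 1 higher without Label_Input replicate 1. Enzymes of the citric acid cycle and mitochondrial matrix had 3 of 30 higher and 10 lower. Genes named TMEM, a heading for membrane proteins of many kinds, had 12 of 143 higher and 16 lower. Genes of GPI anchor synthesis had 3 of 26 called in each direction, with 1 lower without Label_Enrich replicate 1 or Label_Input replicate 3. Peroxisome genes had 4 of 29 higher and 2 lower, with 2 higher without Label_Input replicate 2. DNA replication genes had 9 of 52 called in each direction, with 5 lower without Label_Enrich replicate 3 and 4 without Label_Input replicate 1. Genes of ubiquitin conjugation had 15 of 69 higher and 12 lower.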
